A study of Mus musculus with 31 samples.

Results

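The experiment covered here was topical clobetasol treatment of parental melanoma tumors: 5 tumors from glucocorticoid (GC)-treated mice and 5 from control-treated mice, 10 of the 31 RNA libraries in the series, chosen by their sample titles. The series design counts 5 mice per treatment for each tumor line. The mouse melanoma line came from C57BL/6 animals with a conditional *Nras* allele (G12D) and a tamoxifen-dependent Cre recombinase driven by the tyrosinase promoter. Its cells were implanted intradermally into immunocompetent wild type C57BL/6 mice, so each library holds tumor, immune, vascular and skin RNA. The GC was clobetasol propionate 0.05% ointment, put on the tumor and the skin around it 3 times a week, and the control was cetraben cream, a different base. Mouse age and the day of harvest of these tumors were not given in the sources used here. For comparison, 5 control-treated and 5 GC-treated tumors of a GR knockout (GR KO) derivative, grown as colonies from single edited cells, and 5 parental cultures (3 with DMSO, 2 with clobetasol propionate) were used. The labels of the treated cultures give 10 µM in the treatment field and 1 µM in the library name.

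GCs bind the glucocorticoid receptor (GR, encoded by *Nr3c1*), which moves to the nucleus, binds palindromic DNA elements and induces genes such as *Tsc22d3*, *Per1* and *Fkbp5*. The receptor also represses inflammatory genes driven by NF-κB and AP-1. In skin, potent GCs are used against inflammation, and keratinocytes, fibroblasts, endothelium and leukocytes all carry the receptor, as tumor cells can.

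Each value below is a read count per gene, scaled with TMM factors to CPM. Total counts were 15528066, 19649621, 17750913, 16865315 and 26386770 in control tumors 1 to 5 and 17645745, 20917002, 20602855, 21660514 and 16028972 in GC-treated tumors 1 to 5. A gene with 3 counts in a library lay between 0.112 and 0.191 CPM, a floor that covers counting error only. Within the GC group, libraries 2 and 4 stood apart. Across genes, GC-treated tumors 1, 3 and 5 had pairwise correlations of log2(CPM + 1) of at least 0.983, and tumors 2 and 4 had correlations of 0.941 to 0.960 with them and 0.966 with each other. Control tumors correlated at 0.948 to 0.976 among themselves, a spread much like that of tumors 2 and 4 from the other treated tumors. Thinned to 15528066 counts each, the GC-treated tumors had 16918, 15774, 16671, 15803 and 16759 genes detected and the control tumors 15578, 16668, 16097, 16761 and 15738. Mitochondrially encoded genes took 2.12, 1.58, 2.24, 1.33 and 2.09% of counts in GC-treated tumors and 1.46, 2.47, 1.25, 1.35 and 1.46% in control tumors, and the 10 most abundant genes took 8.56, 10.7, 7.37, 9.50 and 7.58% and 12.3, 8.56, 7.26, 8.03 and 6.69%. With the number of genes detected as a covariate, a fit not planned beforehand, 206 genes were called higher and 329 lower, and 0 of the genes named below lost a call. Other library differences were not tested as covariates. DEG counts, list medians and most calls of named genes are also given without GC-treated tumors 2 and 4, a choice made once the values had been seen. That fit holds 3 treated tumors in place of 5, so a lost call with a similar fold change does not show a smaller effect.

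The melanocyte lineage label had little support in transcripts. *Tyr*, the enzyme of melanin synthesis, had 0 counts in all 10 tumors. *Mlana*, a melanosome protein, had a mean of 0.580 CPM in control and 0.0632 CPM in GC-treated tumors, and *Sox10*, the transcription factor of the neural crest lineage, had 1.90 and 1.61 CPM. *Pmel* and *Dct*, which act in the melanosome, had 3.01 and 4.55 CPM in control tumors and 0.860 and 1.35 CPM in GC-treated tumors. *Mitf*, which encodes the lineage's master regulator and is also used by macrophages and mast cells, was at 32.5 ± 9.96 CPM (mean ± SD, n = 5) and 42.1 ± 7.14 CPM, and *S100b* was at 17.7 ± 3.60 and 32.9 ± 22.8 CPM. In the 5 parental cultures, *Sox10*, *Dct*, *Tyr* and *Mlana* were at 0, 0, 0 and 0 CPM and *Mitf* at 10.99 CPM. The whole lineage list summed to 20.2 CPM in these cultures, so members whose culture values are not given here were also detected. For the melanocyte lineage list, 0 of 9 were called by edgeR, 0 higher and 0 lower were called by DESeq2, and 0 higher and 1 lower had an unadjusted p under 0.05. Their median log2 fold change was -0.50 (-0.63 without GC-treated tumors 2 and 4), and their summed level was 102, 95.1, 77.1, 85.7 and 61.3 CPM in control and 77.7, 143, 89.8, 104 and 91.8 CPM in GC-treated tumors.

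GC treatment of parental tumors raised genes of the GR response, metallothioneins and some macrophage and epidermal transcripts, and lowered some inflammatory cytokines, alarmins, stefins, a dendritic cell chemokine and single endothelial and interferon-stimulated transcripts. Of 15919 genes tested, 69 (0.433%) were higher and 55 (0.345%) lower at an edgeR adjusted p under 0.05 and a fold change of at least 1.5, which are the differentially expressed genes (DEGs). The median log2 fold change of all genes tested was 0.00397, and 7917 had a negative value. At an unadjusted p under 0.05, 1122 genes (7.05%) were higher and 1127 (7.08%) lower. Every GC-treated tumor lay above every control tumor for 63 of the higher DEGs and below for 44 of the lower DEGs, and over all genes tested this held for 2.49% and 1.71%. DESeq2 called 181 genes higher (1.56% of those it gave an adjusted p) and 195 lower (1.68%). In the lists below, members said to rise, fall or be called did so by edgeR unless DESeq2 is named. Without GC-treated tumors 2 and 4, edgeR called 24 higher (0.152%) and 8 lower (0.0507%), of which 22 and 7 were among the DEGs of all 10 tumors. In fits with 1 tumor left out in turn, 31 higher and 17 lower DEGs were called in all 10. Of the DEGs named below, *Abca9* (4), *Aplnr* (3), *Cdh6* (1), *Cidea* (3), *Clec7a* (2), *Col4a1* (4), *Cyp26b1* (3), *Dcstamp* (4), *Ddah1* (4), *Egr1* (5), *Fmo2* (2), *Glul* (2), *Hes1* (3), *Irs1* (5), *Ltb* (2), *Mertk* (3), *Neb* (1), *Phf15* (5), *Reg1* (3), *S100a8* (4), *Stfa2* (4) and *Ttn* (3) were called in 5 or fewer of these fits.

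*Tsc22d3*, which encodes the anti-inflammatory mediator GILZ, was at 88.5, 42.1, 72.4, 87.2 and 68.7 CPM in control tumors 1 to 5 and at 454, 181, 372, 346 and 460.0 CPM in GC-treated tumors 1 to 5. All 5 GC-treated tumors lay above all 5 control tumors, with GC-treated tumor 2 the lowest of them. The log2 fold change was 2.34 ± 0.25 (SE, edgeR adjusted p = 1.61e-05, exact permutation p = 0.00794, two-sided, the smallest that 5 against 5 can give). *Per1*, a period gene of the circadian clock with a GR-bound promoter, was at 26.6, 17.1, 17.5, 16.9 and 17.3 CPM in control and 85.0, 61.5, 112, 69.8 and 109 CPM in GC-treated tumors. Its groups did not overlap either, although control tumor 1 lay above the other controls, and it rose by 2.19 ± 0.27 on the log2 scale (edgeR adjusted p = 0.000147). *Fkbp5*, which encodes a co-chaperone that restrains the receptor, was at 66.4, 54.9, 75.1, 73.7 and 86.3 CPM in control and 190.1, 38.6, 207, 91.4 and 193 CPM in GC-treated tumors. GC-treated tumors 1, 3 and 5 lay above every control, tumor 4 just above the highest control and tumor 2 below the lowest, and the gene was not called (log2 fold change 1.02 ± 0.34, edgeR adjusted p = 0.183; 1.46 and 0.0211 without GC-treated tumors 2 and 4). The receptor gene *Nr3c1* was at 63.4, 57.1, 44.9, 55.6 and 52.2 CPM in control and 53.4, 24.4, 48.2, 37.3 and 49.8 CPM in GC-treated tumors, with overlapping groups (log2 fold change -0.36 ± 0.24, edgeR adjusted p = 0.525).

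Of 29 tested genes on a list of GC-responsive genes, 12 rose and 0 fell, and the median log2 fold change was 1.05 (1.24 without GC-treated tumors 2 and 4, when 11 rose). The list was chosen with earlier results of these data known. Members such as *Tsc22d3*, *Per1*, *Mt1*, *Mt2*, *Rgs2*, *Cebpd* and *Klf9* were also chosen by the study on these samples. The direction of the list is therefore no independent evidence. The summed level of the list was 2416, 2379, 2399.8, 2419 and 2724 CPM in control and 6719, 5908, 7639, 7248 and 7154 CPM in GC-treated tumors, of which *Mt1* made up 34.1%. The metallothioneins, which bind zinc and copper, were the most abundant members: *Mt1* was at 757, 732, 629.6, 666 and 783 CPM in control and 1802, 2883, 2100.4, 3315 and 2370.3 CPM in GC-treated tumors, and *Mt2* at 311, 281, 295, 313 and 375 and 1004, 836, 1201, 1112 and 1059 CPM. Neither had overlapping groups, and they rose by 1.81 ± 0.23 and 1.73 ± 0.17 on the log2 scale (edgeR adjusted p = 0.000253 and 9.19e-06). *Rgs2*, a brake on G protein signaling, rose by 1.88 ± 0.33, and GC-treated tumor 2 at 274 CPM was the closest to the highest control at 226 CPM. The transcription factors *Cebpd* and *Klf9* rose by 1.66 ± 0.28 and 1.51 ± 0.29, the kinase gene *Sgk1* by 1.27 ± 0.21, the growth arrest gene *Gadd45g* by 1.48 ± 0.20 and the protease gene *Adamts1* by 1.15 ± 0.19. *Hif3a*, which encodes a hypoxia-inducible factor subunit, went from 0.505 ± 0.505 CPM to 10.8 ± 4.05 CPM (log2 fold change 4.38 ± 0.91), with no control above 1.12 CPM. *Ddit4*, an inhibitor of mTOR complex 1, was at 57.1, 97.7, 66.8, 70.3 and 109.7 CPM in control and 323, 263, 329, 122 and 339 CPM in GC-treated tumors. GC-treated tumor 4 was apart from the other 4 treated tumors but above the highest control (log2 fold change 1.77 ± 0.25, edgeR adjusted p = 0.000591). *Sgk1* and *Hif3a* were not called without GC-treated tumors 2 and 4 (log2 fold change 1.09 and 4.20, edgeR adjusted p = 0.0518 and 0.171), and *Mt1*, *Mt2*, *Rgs2*, *Cebpd*, *Klf9*, *Gadd45g*, *Adamts1* and *Ddit4* kept their calls.

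**Figure D1:**
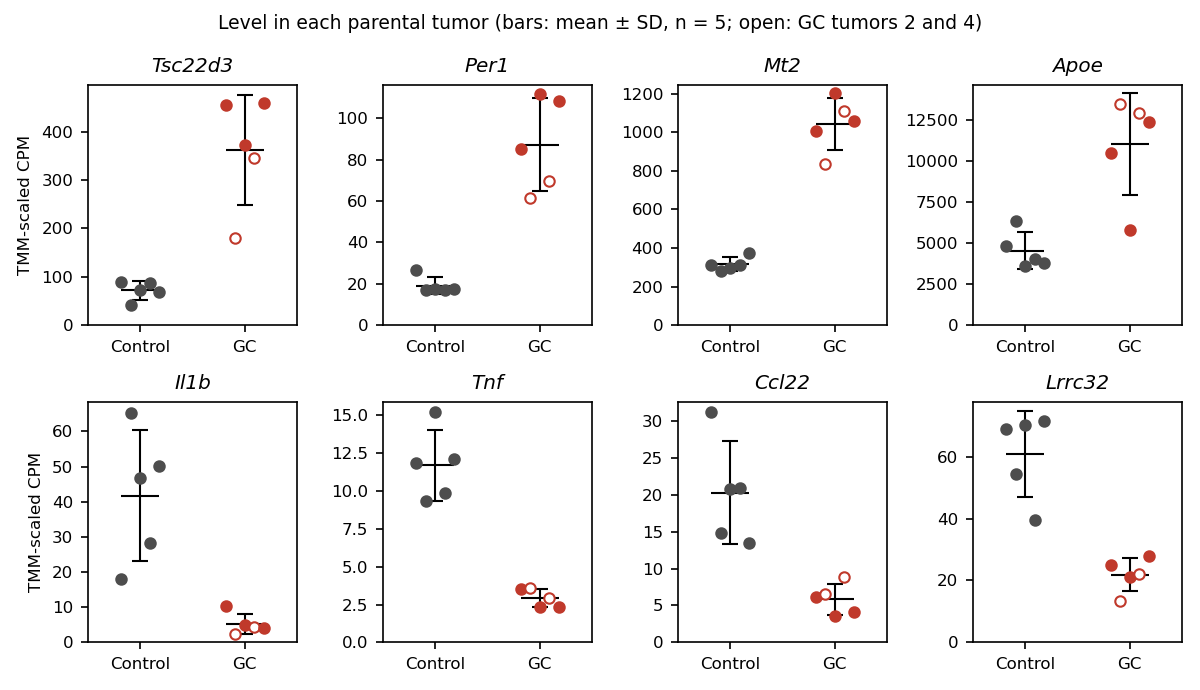
Level of 8 genes in each parental tumor, in TMM-scaled CPM on a linear axis from 0, for 5 control and 5 GC-treated tumors; bars are the mean ± SD and open points are GC-treated tumors 2 and 4. The groups do not overlap for the genes shown except *Apoe*, for which GC-treated tumor 3 (5799 CPM) lies below control tumor 2 (6351 CPM).

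Further genes rose with GC. *Chi3l3* (Ym1), a chitinase-like protein of alternatively activated macrophages with close paralogs, was at 3.18, 0.864, 0.514, 2.16 and 2.01 CPM in control and 22.5, 11.1, 13.4, 28.1 and 13.4 CPM in GC-treated tumors, and *Reg1*, a secreted lectin, at 1.29 ± 0.932 and 16.0 ± 3.26 CPM. The log2 fold changes were 3.35 ± 0.59 and 3.64 ± 0.81. *Fmo2*, a flavin monooxygenase, and *Adrb1*, the beta-1 adrenergic receptor, rose by 2.68 ± 0.62 and 2.53 ± 0.46. *Ccdc3*, *Amica1* (the junctional adhesion molecule-like receptor of leukocytes), *Cidea* (a lipid droplet protein) and *Abca9* rose by 2.19 ± 0.37, 2.00 ± 0.36, 1.98 ± 0.46 and 1.93 ± 0.41. The genes of this paragraph so far were chosen by size among DEGs without overlap between groups. *Cdh6*, a cadherin named after its values were seen, had 0 counts in every control tumor and a mean of 0.961 CPM with GC, at least 6.30-fold higher than the mean control floor of 0.153 CPM. *Reg1*, *Fmo2*, *Ccdc3*, *Amica1*, *Cidea* and *Abca9* were not called without GC-treated tumors 2 and 4 (log2 fold change 3.80, 2.57, 1.68, 1.66, 1.73 and 1.47, edgeR adjusted p = 0.123, 0.232, 0.0748, 0.109, 0.292 and 0.339), and *Chi3l3* and *Adrb1* kept their calls. *Cdh6* also lost its call without them (edgeR adjusted p = 0.212), and no fold change is given for it because of the 0 counts. *Reg1*, *Fmo2*, *Cidea*, *Abca9* and *Cdh6* were called in 3, 2, 3, 4 and 1 of 10 fits with 1 tumor left out.

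Some inflammatory cytokine and chemokine genes fell with GC. *Il1b*, which encodes the pyrogenic cytokine interleukin-1β, was at 18.2, 65.3, 46.9, 28.3 and 50.0 CPM in control and 10.3, 2.51, 5.08, 4.33 and 3.99 CPM in GC-treated tumors, and every treated tumor lay below every control. It fell by 2.99 ± 0.46 on the log2 scale (edgeR adjusted p = 0.00156; -2.69 and 0.0348 without GC-treated tumors 2 and 4). *Tnf*, the gene for tumor necrosis factor, was at 11.8, 9.36, 15.2, 9.85 and 12.1 CPM in control and 3.52, 3.56, 2.34, 2.95 and 2.34 CPM in GC-treated tumors. Its groups did not overlap either (log2 fold change -1.99 ± 0.36, edgeR adjusted p = 0.00645), and without GC-treated tumors 2 and 4 the values were -2.09 and 0.0571. The neutrophil chemokine *Cxcl5* and *Ccl4*, a chemokine of macrophages and lymphocytes, had log2 fold changes of -3.77 ± 0.76 and -2.03 ± 0.34 (edgeR adjusted p = 0.0136 and 0.00355); *Cxcl5* overlapped through control tumor 1 at 1.08 CPM. *Cxcl5* and *Ccl4* were not called without GC-treated tumors 2 and 4 (log2 fold change -3.24 and -1.81, edgeR adjusted p = 0.175 and 0.0701). Of 18 cytokine and chemokine genes tested, 4 fell and 0 rose, 16 had a negative log2 fold change, and the median was -1.27 (-1.18 without GC-treated tumors 2 and 4, when 1 fell). The most abundant member, the monocyte chemokine *Ccl8*, made up 81.2% of the list and had a log2 fold change of 0.39 ± 0.28, and the summed level had a mean of 812 CPM in control and 899 CPM in GC-treated tumors. Among 20 NF-κB targets and feedback genes, the adhesion molecule gene *Vcam1* rose by 1.01 ± 0.19 (edgeR adjusted p = 0.00957). Of these 20, 0 fell by edgeR and 3 by DESeq2, and the median was -0.40 (-0.51 without GC-treated tumors 2 and 4). The most abundant of them, *Tnfaip2*, had a log2 fold change of -0.32 ± 0.17. Of 20 immediate-early genes, *Egr1* fell by 1.07 ± 0.24 and 0 rose by edgeR, and 3 fell by DESeq2. Their list median was -0.65 (-0.63 without GC-treated tumors 2 and 4), and *Ier5*, the most abundant, had -1.04 ± 0.26 (edgeR adjusted p = 0.0613). Leaving out GC-treated tumors 2 and 4, *Vcam1* kept its call and *Egr1* did not (log2 fold change -1.08, edgeR adjusted p = 0.170).

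The alarmin genes *S100a8* and *S100a9*, whose products form calprotectin in neutrophils and inflamed epidermis, fell, but their controls were far apart. *S100a9* was at 5.48, 20.8, 103, 8.33 and 567 CPM in control and 2.70, 2.98, 5.04, 2.51 and 8.44 CPM in GC-treated tumors, and *S100a8* at 11.3, 41.1, 128, 11.7 and 704 and 4.24, 4.24, 3.36, 17.8 and 27.9 CPM. Control tumors 5 and 3 carried most of both, and control tumors 1 and 4 were within the range of treated tumors. The log2 fold changes were -5.03 ± 0.98 and -3.96 ± 0.94 (edgeR adjusted p = 0.0109 and 0.0437, exact permutation p = 0.0238 and 0.0635, and without GC-treated tumors 2 and 4 log2 fold changes -4.71 and -3.93, edgeR adjusted p = 0.171 and 0.305). With 1 tumor left out, the values came as close to 0 as -2.98 and -2.05. Of 14 neutrophil genes tested, 2 fell and 0 rose, with a median of -1.07 (-1.12 without GC-treated tumors 2 and 4). Their summed level was 237, 675, 889.8, 274 and 2185 CPM in control and 223, 205, 332, 178 and 349 CPM in GC-treated tumors, 56.4% of it from the gelatinase gene *Mmp9*, which was not called (-1.39 ± 0.40). In bulk tissue, fewer cells of a type and less RNA per cell cannot be told apart.

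Stefin and epidermal genes that fell were highest in the same control tumors. *Stfa1* and *Stfa3*, cysteine protease inhibitors of a cluster with near-identical copies on chromosome 16, were at 19.0, 40.5, 117, 26.8 and 243 and 189.8, 236, 356, 190.0 and 369 CPM in control tumors 1 to 5, and at 4.44, 2.72, 6.85, 6.16 and 14.8 and 19.4, 77.3, 28.2, 54.6 and 51.2 CPM in GC-treated tumors. Control tumors 3 and 5 were again the highest. They fell by 3.68 and 2.54 on the log2 scale, and the neighbouring *BC100530* by 2.19 and *Stfa2*, named after its values were seen, by 2.93. Which of these copies a read came from is uncertain. *Krt6b*, a keratin of activated keratinocytes with a near-identical paralog, was at 604, 869.8, 1328, 677 and 5196 CPM in control and 177, 285, 242, 265 and 559 CPM in GC-treated tumors, with control tumor 5 far above the rest (log2 fold change -2.50 ± 0.51, and -1.50 at its weakest with 1 tumor left out). The protease gene *Tmprss11g* and the gasdermin gene *Gsdmc* fell by 3.96 and 2.14. In the other direction, *Lor*, which encodes the cornified envelope protein loricrin, was at 424, 348, 251.7, 447 and 308 CPM in control and 799, 922, 664, 723 and 963 CPM in GC-treated tumors and rose by 1.19 ± 0.24, and *Krt15*, a keratin of basal and bulge cells, rose by 1.45 ± 0.28 (edgeR adjusted p = 0.0149 and 0.00859). Of 16 keratinocyte genes tested, 2 rose (1 without GC-treated tumors 2 and 4) and 0 fell, with a median of -0.16 (0.05 without GC-treated tumors 2 and 4). Their summed level was 3005, 3030.0, 3626, 2834 and 6990.4 CPM in control and 3127, 4479, 3153, 3705 and 3928 CPM in GC-treated tumors, so control tumor 5 also held the most keratinocyte RNA, with *Krt14* the most abundant gene (-0.50 ± 0.38). *Stfa2*, *Krt6b*, *Tmprss11g*, *Gsdmc* and *Lor* were not called without GC-treated tumors 2 and 4 (log2 fold change -3.04, -2.41, -3.35, -1.94 and 1.18, edgeR adjusted p = 0.284, 0.177, 0.123, 0.109 and 0.0954), and *Stfa1*, *Stfa3*, *BC100530* and *Krt15* kept their calls. The part of skin content in the stefin, keratin and alarmin results was not tested.

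Macrophage genes did not share a direction. *Apoe*, which encodes the lipid carrier apolipoprotein E, was at 4798, 6351, 3620.4, 4055 and 3796 CPM in control and 10495, 13426, 5799, 12892 and 12374 CPM in GC-treated tumors. GC-treated tumor 3 lay within the controls and the other 4 above them (log2 fold change 1.28 ± 0.25, edgeR adjusted p = 0.00957; 1.08 and 0.123 without GC-treated tumors 2 and 4). *Apoe* was the single member called by edgeR among 19 monocyte and macrophage genes, of which DESeq2 called 2 higher. *Apoe* made up 51.7% of the list's summed level, which was 11925, 14352, 9172, 10497 and 9189 CPM in control and 18276, 23589.8, 10609, 23274 and 19348 CPM in GC-treated tumors. The complement genes *C1qa* and *C1qb* had log2 fold changes of 0.40 ± 0.29 and 0.58 ± 0.22 (edgeR adjusted p = 0.562 and 0.235), which were -0.0854 and 0.26 without GC-treated tumors 2 and 4, and the list's median was 0.15 (0.10 without GC-treated tumors 2 and 4). Named after their values were seen, the scavenger receptor gene *Stab1* and *Mertk*, a receptor for apoptotic cells, rose by 1.24 ± 0.22 and 1.13 ± 0.27, while *Clec7a*, the β-glucan receptor of myeloid cells, fell by 1.59 ± 0.35 (edgeR adjusted p = 0.00487, 0.0457 and 0.0318). *Stab1* and *Mertk* were highest in GC-treated tumor 4, at 456 and 558 CPM. The cultured line also expressed *Mertk*, at a mean of 81.1 CPM, against 0.190 CPM for *Stab1*. *Dcstamp*, needed for fusion of macrophages and osteoclasts, and *Fcgbp*, an IgG Fc binding protein, fell by 2.09 and 2.36. *Stab1*, *Mertk*, *Clec7a* and *Dcstamp* were not called without GC-treated tumors 2 and 4 (log2 fold change 0.93, 0.72, -1.37 and -2.14, edgeR adjusted p = 0.0938, 0.513, 0.327 and 0.175), and *Fcgbp* kept its call. *Mertk* and *Clec7a* were called in 3 and 2 of 10 fits with 1 tumor left out.

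Dendritic cell and lymphocyte genes had mostly negative values, of which few passed the test. *Ccl22*, a chemokine of mature dendritic cells that attracts regulatory T cells, was at 31.2, 14.8, 20.8, 20.9 and 13.5 CPM in control and 6.18, 6.49, 3.62, 8.91 and 4.10 CPM in GC-treated tumors, without overlap, and fell by 1.79 ± 0.33 on the log2 scale (edgeR adjusted p = 0.00744; -2.13 and 0.0199 without GC-treated tumors 2 and 4). Of 13 dendritic cell genes tested, 1 was called lower by edgeR and 3 by DESeq2. In this list, 13 had a negative log2 fold change and the median was -0.88 (-0.84 without GC-treated tumors 2 and 4). The summed level of this list was 81.1% *Fscn1*, an actin bundler that the cultured line also expressed at 527 CPM, and is no measure of dendritic cells; *Ccl17*, its next member, had -0.34 ± 0.39. Among T cell genes, 0 of 13 were called by edgeR, 0 higher and 3 lower were called by DESeq2, and 0 higher and 3 lower had an unadjusted p under 0.05, with a median of -0.41 (-0.87 without GC-treated tumors 2 and 4) and -0.87 without GC-treated tumors 2 and 4. *Cd2*, the adhesion receptor of T and NK cells, had -0.96 ± 0.28 (edgeR adjusted p = 0.116). Among genes of CD4 and regulatory T cells, 0 of 10 were called by edgeR, 0 higher and 1 lower were called by DESeq2, and 0 higher and 8 lower had an unadjusted p under 0.05. All 10 values in this list were negative, with a median of -0.86 (-1.14 without GC-treated tumors 2 and 4), and its summed level was 234 ± 58.8 CPM in control and 132 ± 25.9 CPM in GC-treated tumors. *Icos*, its most abundant gene, had -0.81 ± 0.30 (edgeR adjusted p = 0.222). For CD8 T and NK cell genes, 0 of 15 were called by edgeR, 0 higher and 0 lower were called by DESeq2, and 0 higher and 3 lower had an unadjusted p under 0.05, with a median of -0.59 (-0.51 without GC-treated tumors 2 and 4) and -0.59 ± 0.26 for *Ccl5*. *Ltb*, lymphotoxin beta of lymphocytes, fell by 2.25 ± 0.52 (edgeR adjusted p = 0.0348), with control tumor 1 at 14.8 CPM the highest. It was called in 2 of 10 fits with 1 tumor left out, and without GC-treated tumors 2 and 4 the log2 fold change was -2.14 and the edgeR adjusted p 0.292. B and plasma cell genes were sparse: 0 of 7 were called by edgeR, 0 higher and 0 lower were called by DESeq2, and 0 higher and 0 lower had an unadjusted p under 0.05, the median was -0.10 (-0.14 without GC-treated tumors 2 and 4), and the summed level was 13.1, 10.7, 12.2, 11.8 and 10.2 CPM in control and 11.6, 17.3, 7.74, 17.3 and 8.89 CPM in GC-treated tumors.

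Most interferon-stimulated and antigen presentation genes had negative values, and 1 of them was called by edgeR. Of 26 interferon-stimulated genes, 23 had a negative log2 fold change, against 49.7% of all genes tested. By edgeR 1 fell, by DESeq2 5 fell, and 14 were lower at an unadjusted p under 0.05. The gene called by edgeR was *Bst2* (tetherin), at 214 ± 37.6 CPM in control and 76.9 ± 40.6 CPM in GC-treated tumors, without overlap (-1.48 ± 0.29, edgeR adjusted p = 0.0109; -1.20 and 0.170 without GC-treated tumors 2 and 4). The median of the list was -0.91 (-0.97 without GC-treated tumors 2 and 4), and its summed level was 3036, 2242, 1864, 3038 and 1739.8 CPM in control and 2452, 1352, 1234, 1934 and 1087 CPM in GC-treated tumors. *Cxcl9*, a CXCR3 ligand and its most abundant gene, had a positive value (0.49 ± 0.33, edgeR adjusted p = 0.537). Of the MHC class I presentation genes, 0 of 11 were called by edgeR, 0 higher and 2 lower were called by DESeq2, and 0 higher and 7 lower had an unadjusted p under 0.05; 10 of 11 values were negative and the median was -0.75 (-0.63 without GC-treated tumors 2 and 4). *B2m*, the light chain, had -0.73 ± 0.26 and *H2-K1*, a heavy chain, -1.18 ± 0.32 (edgeR adjusted p = 0.195 and 0.0929). For MHC class II presentation, 0 of 10 were called by edgeR, 0 higher and 0 lower were called by DESeq2, and 0 higher and 2 lower had an unadjusted p under 0.05, with a median of -0.33 (-0.50 without GC-treated tumors 2 and 4); the invariant chain gene *Cd74* had -0.26 ± 0.31 and *H2-Ab1* -0.55 ± 0.21. Costimulation and checkpoint genes had a median of -0.07 (-0.09 without GC-treated tumors 2 and 4), and 0 of 12 were called by edgeR, 0 higher and 0 lower were called by DESeq2, and 0 higher and 1 lower had an unadjusted p under 0.05.

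*Lrrc32* encodes GARP, a cell surface protein that holds latent TGF-β for activation. The study singled it out from these same tumors and cultures, so its values below for parental tumors are no independent evidence of a fall. The gene (ENSMUSG00000090958, GRCm38 chr7:98489283-98502181) was at 68.8, 54.4, 70.2, 39.5 and 71.5 CPM in control and 24.9, 13.3, 21.2, 22.2 and 27.8 CPM in GC-treated tumors. All treated tumors lay below all controls, and control tumor 4 was the lowest control. It fell by 1.48 ± 0.26 on the log2 scale (edgeR adjusted p = 0.00491, exact permutation p = 0.00794; -1.31 and 0.0755 without GC-treated tumors 2 and 4). In GR KO tumors its log2 fold change was -0.03, and the difference between genotypes, -1.45 ± 0.36, was not called (edgeR adjusted p = 0.0820), which does not show that it was absent. *Lrrc32* was the single gene called among 17 TGF-β ligand, activation and receptor genes, whose median was -0.06 (-0.17 without GC-treated tumors 2 and 4); *Ltbp3*, a latent TGF-β binding protein and the most abundant, had -0.32 ± 0.25. Of 19 TGF-β targets and feedback genes, *Klf10*, a TGF-β-inducible transcription factor, fell by 1.32 ± 0.27 and 0 rose by edgeR. DESeq2 called 4 lower, and 8 were lower at an unadjusted p under 0.05. The list's median was -0.32 (-0.25 without GC-treated tumors 2 and 4). *Pmepa1*, the most abundant target, had 0.17 ± 0.22. The edgeR adjusted p of *Klf10* was 0.0153, and 0.170 at a log2 fold change of -1.27 without GC-treated tumors 2 and 4.

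Endothelial genes shared a negative sign. *Plvap*, which forms the diaphragms of fenestrated endothelium, was at 108, 51.0, 135, 97.8 and 85.3 CPM in control and 43.9, 32.0, 50.4, 45.4 and 40.8 CPM in GC-treated tumors, without overlap, and fell by 1.17 ± 0.22 (edgeR adjusted p = 0.00957; -1.08 and 0.123 without GC-treated tumors 2 and 4). Of 13 endothelial genes tested, 1 was called by edgeR and 2 by DESeq2, and 13 had negative values, with a median of -0.59 (-0.70 without GC-treated tumors 2 and 4). Their summed level was 223, 153, 219, 209 and 174 CPM in control and 113, 102, 104, 119 and 107 CPM in GC-treated tumors, 45.3% of it *Plvap*, and the groups did not overlap. *Kdr*, the main VEGF receptor, had -1.02 ± 0.26 (edgeR adjusted p = 0.0674). Of 15 angiogenesis genes, *Aplnr*, the apelin receptor, was called lower, with means of 1.49 CPM in control and 0.112 CPM in GC-treated tumors, the latter at the floor. Its groups overlapped, it was called in 3 of 10 fits with 1 tumor left out, and the edgeR adjusted p was 0.274 without GC-treated tumors 2 and 4. For these genes the median was -0.33 (-0.31 without GC-treated tumors 2 and 4) and *Flt1*, the most abundant, had -0.27 ± 0.16.

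Stromal and matrix genes had few calls. Of 18 collagen and matrix genes, *Col4a1* of basement membranes rose by 0.85 ± 0.20 (edgeR adjusted p = 0.0394; 0.50 and 0.503 without GC-treated tumors 2 and 4), 0 fell and the median was 0.23 (0.19 without GC-treated tumors 2 and 4). *Sparc*, the most abundant, had 0.42 ± 0.25. *Timp3*, an inhibitor of metalloproteinases, rose by 1.05 ± 0.21 with *Adamts1* among 20 protease and inhibitor genes. DESeq2 called 2 of these 20 higher and 3 lower. Their median was 0.11 (0.01 without GC-treated tumors 2 and 4), and *Timp2* had 0.50 ± 0.36. *Col10a1*, the collagen of hypertrophic cartilage and of some tumor stroma, fell by 2.60 ± 0.52. *Timp3* and *Col10a1* were not called without GC-treated tumors 2 and 4 (log2 fold change 0.87 and -2.40, edgeR adjusted p = 0.120 and 0.177). For fibroblast genes, 0 of 12 were called by edgeR, 0 higher and 0 lower were called by DESeq2, and 5 higher and 0 lower had an unadjusted p under 0.05; the median was 0.34 (0.43 without GC-treated tumors 2 and 4), and *Col1a1* and *Col3a1* had 0.55 ± 0.17 and 0.27 ± 0.22. For pericytes and smooth muscle, 0 of 10 were called by edgeR, 1 higher and 0 lower were called by DESeq2, and 2 higher and 0 lower had an unadjusted p under 0.05, with a median of 0.32 (0.07 without GC-treated tumors 2 and 4); *Acta2* made up 82.4% of that list and was at 4343 CPM in the cultures.

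Of 22 cell cycle genes tested, 19 had a negative log2 fold change and 0 rose. By edgeR 1 fell and by DESeq2 2 fell, and the median was -0.57 (-0.48 without GC-treated tumors 2 and 4). *Plk1*, a mitotic kinase, was at 259, 207, 290.2, 230.1 and 363 CPM in control and 149.7, 83.5, 157, 123 and 145 CPM in GC-treated tumors and fell by 1.04 ± 0.21 (edgeR adjusted p = 0.0136; -0.84 and 0.172 without GC-treated tumors 2 and 4). *Cdt1*, a replication licensing factor named after its values were seen, fell by 0.98 ± 0.18, and *Ccnd1*, the most abundant member, had -0.13 ± 0.19. In lipid metabolism, 13 of 16 sterol and fatty acid genes had negative values, 1 fell (also 1 without GC-treated tumors 2 and 4), 0 rose and the median was -0.65 (-0.58 without GC-treated tumors 2 and 4). *Scd2*, a desaturase, and *Fasn*, the fatty acid synthase, had -1.03 ± 0.40 and 0.15 ± 0.25. *Cyp51* and *Fads1*, enzymes of sterol and polyunsaturated fatty acid synthesis named after their values were seen, fell by 1.11 and 0.87. Among 14 insulin and mTOR genes, *Deptor*, an inhibitor of mTOR, rose by 1.08 ± 0.20 together with *Ddit4*, and *Irs1*, an insulin receptor adaptor, fell by 0.89 ± 0.20 (list median 0.06, 0.00 without GC-treated tumors 2 and 4). *Cdt1*, *Cyp51*, *Fads1*, *Deptor* and *Irs1* were not called without GC-treated tumors 2 and 4 (log2 fold change -0.80, -1.02, -0.78, 0.77 and -0.71, edgeR adjusted p = 0.111, 0.129, 0.0518, 0.170 and 0.296).

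The other lists held few or no calls. By edgeR, *Hif3a* was the single call among 16 hypoxia and glycolysis genes (3 higher by DESeq2, median 0.01, 0.02 without GC-treated tumors 2 and 4, *Aldoa* 0.39 ± 0.18). *Per1* was the single call among 15 clock genes (median -0.04, 0.24 without GC-treated tumors 2 and 4, *Tef* 0.65 ± 0.24). In metal handling, *Mt1*, *Mt2* and the copper carrier *Cp* (1.33 ± 0.28) rose and the median of 14 genes was -0.17 (-0.12 without GC-treated tumors 2 and 4). For apoptosis and cell death genes, 0 of 16 were called by edgeR, 1 higher and 1 lower were called by DESeq2, and 1 higher and 2 lower had an unadjusted p under 0.05 (median -0.35, -0.30 without GC-treated tumors 2 and 4, *Mcl1* -0.46 ± 0.21). For mast cells, basophils and eosinophils, 0 of 9 were called by edgeR, 1 higher and 0 lower were called by DESeq2, and 2 higher and 0 lower had an unadjusted p under 0.05 (median 0.50, 0.42 without GC-treated tumors 2 and 4); the mast cell tryptase *Tpsb2* had 1.03 ± 0.26 (edgeR adjusted p = 0.0636). For skeletal muscle, 0 of 12 were called by edgeR, 1 higher and 0 lower were called by DESeq2, and 5 higher and 0 lower had an unadjusted p under 0.05 (median 0.55, 0.57 without GC-treated tumors 2 and 4, *Acta1* -0.24 ± 0.25), although the sarcomere genes *Ttn* and *Neb*, named after their values were seen, rose by 1.14 ± 0.26 and 1.56 ± 0.37. The groups overlapped for *Ttn*. *Cp*, *Ttn* and *Neb* were not called without GC-treated tumors 2 and 4 (log2 fold change 1.30, 1.08 and 1.62, edgeR adjusted p = 0.123, 0.199 and 0.170). Muscle RNA was present in every tumor, with a summed level of 534, 472, 489, 424 and 459 CPM in control and 759.8, 402, 434, 613 and 508 CPM in GC-treated tumors, and its part in these results was not tested. For red blood cells, 0 of 5 were called by edgeR, 0 higher and 0 lower were called by DESeq2, and 0 higher and 2 lower had an unadjusted p under 0.05 (median -0.50, -0.66 without GC-treated tumors 2 and 4, *Hbb-bs* -0.94 ± 0.30). For sebaceous gland and adipocytes, 0 of 11 were called by edgeR, 0 higher and 0 lower were called by DESeq2, and 0 higher and 0 lower had an unadjusted p under 0.05 (median 0.23, 0.46 without GC-treated tumors 2 and 4, *Cfd* -0.21 ± 0.20). For Schwann cells, 0 of 6 were called by edgeR, 0 higher and 0 lower were called by DESeq2, and 0 higher and 0 lower had an unadjusted p under 0.05 (median -0.00496, -0.0395 without GC-treated tumors 2 and 4, *Pmp22* 0.22 ± 0.20).

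**Figure D2:**
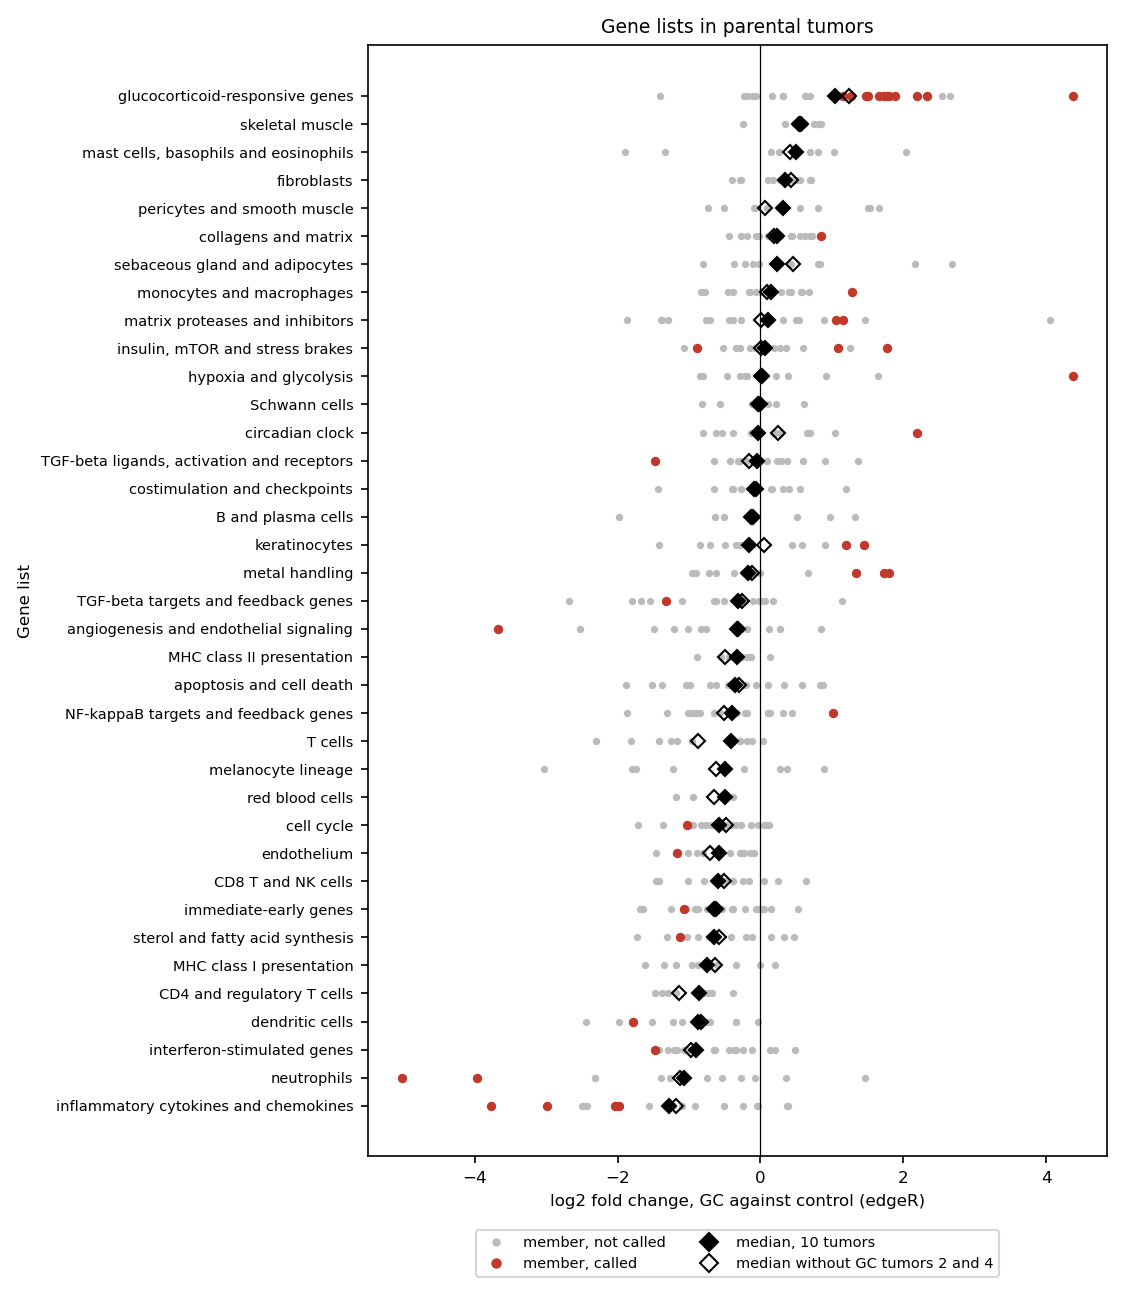
Log2 fold change (edgeR, GC against control, parental tumors) of the tested members of each marker and pathway list, with members called in red, others in grey, and the list median with all 10 tumors (filled diamond) and without GC-treated tumors 2 and 4 (open diamond). The GC-responsive list has a median of 1.05 and the cytokine list -1.27, and most lists hold 0 or 1 called members.

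To place the response, each DEG was set beside its level in the cultured parental line, which holds no host cells. This describes where a transcript could come from and is no proof of a source. Of the 69 higher DEGs, 32 had a mean culture level below 0.1 of the larger tumor mean, 18 were at 0.5 of it or more and 19 lay between. Of the 55 lower DEGs, the counts were 31, 14 and 10. With the DMSO cultures alone, *Tsc22d3*, *Per1* and *Adamts1* counted as low and *Mt1*, *Mt2*, *Ctla2a* and *Deptor* as between, since clobetasol raised them in culture. *Cp* also moved to between and *Timp3* to present. The counts were then 35, 14 and 20 for higher and 31, 15 and 9 for lower DEGs. Over all genes tested, with the cultures of both kinds pooled, 20.03% were low in the line and 59.9% present, against 46.4% and 26.1% of higher and 56.4% and 25.5% of lower DEGs. *Il1b*, *Ccl22*, *Stfa1*, *Stfa3* and *S100a9* had a culture mean of 0 CPM, and *Tnf*, *Clec7a*, *Apoe*, *Lor* and *Plvap* had 0.0570, 0.0138, 2.42, 0.0551 and 0.197 CPM. *Plk1*, *Cyp51* and *Fads1*, by contrast, were at 928, 347 and 383 CPM, above both tumor group means. *Lrrc32* was in between, at 14.5 CPM.

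**Figure D3:**
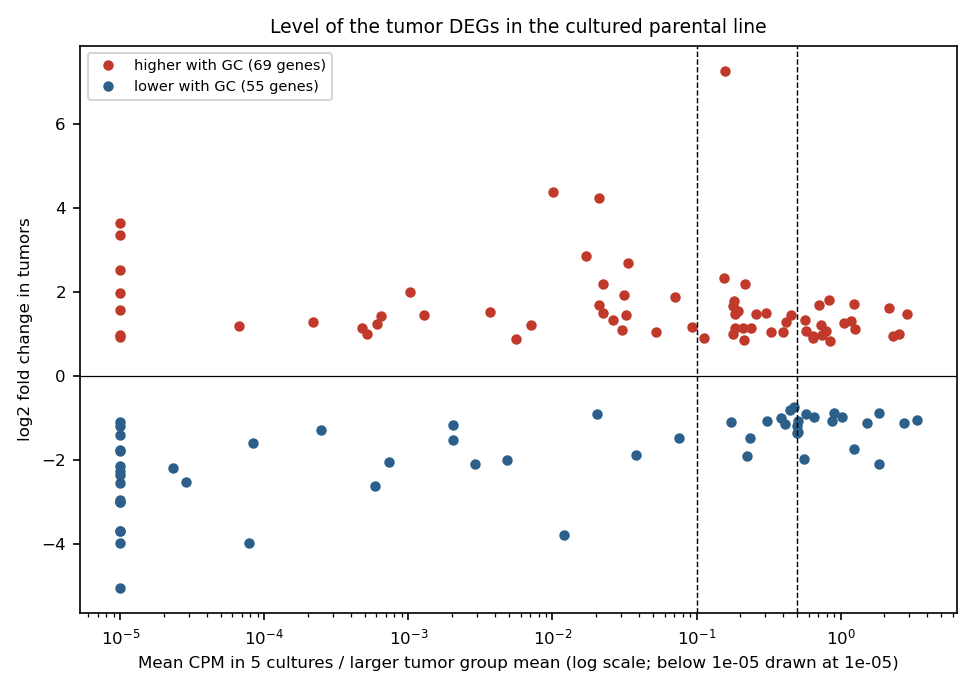
Log2 fold change in parental tumors of the 124 DEGs (vertical axis) against the ratio of their mean CPM in 5 parental cultures to the larger tumor group mean (horizontal axis, log scale, ratios under 1e-05 drawn at 1e-05), with dashed lines at 0.1 and 0.5. The 31 lower and 32 higher DEGs left of the first line were low in the line, and the uppermost point is *Cdh6*, whose fitted value rests on 0 counts in all controls.

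The cultures share no samples with the tumors and show which of these genes the line also changed in culture, at another dose and setting. In culture, clobetasol raised 77 of 12525 genes (0.615%) and lowered 33 (0.263%). Of the 69 genes raised in tumors, 47 were tested in culture and 17 were also raised there, 24.6% of the tumor list and 22.1% of the culture list. They were *Tsc22d3*, *Per1*, *Mt1*, *Mt2*, *Rgs2*, *Cebpd*, *Klf9*, *Sgk1*, *Adamts1*, *Ccdc3*, *Deptor*, *Cyp26b1*, *Ctla2a*, *Fam46b*, *Glul*, *M1ap* and *Phf15*, the last 3 named after their values were seen. *Phf15* was not called without GC-treated tumors 2 and 4 (log2 fold change 0.80, edgeR adjusted p = 0.394), and *Ctla2a*, *Fam46b* and *Glul* kept their calls. *Tsc22d3* rose by 3.09 ± 0.20 in culture, *Per1* by 2.77 ± 0.27, *Mt2* by 3.76 ± 0.17 and *Rgs2* by 3.17 ± 0.22. *Timp3* was called in the opposite direction in culture, at -1.06 ± 0.14. Of the 55 genes lowered in tumors, 29 were tested in culture and 0 were called lower there by edgeR. The study's own comparison, with DESeq2, lists *Lrrc32* as lowered in both culture and tumors. *Lrrc32* had -1.82 ± 0.43 in culture (edgeR adjusted p = 0.0987), which was not called with 2 treated cultures. Of the 77 genes raised in culture, 62 had a positive log2 fold change in parental tumors, with a median of 0.60. In GR KO tumors, 50 of these 77 had a positive value, with a median of 0.19. A list of 25 genes that the study chose on these samples as shared by culture and tumor had 16 higher and 1 lower calls in tumors and a median of 1.61 (1.67 without GC-treated tumors 2 and 4), which is no independent evidence of its direction; *Cyp26b1*, a retinoic acid hydroxylase, rose by 1.54 ± 0.34 and *Dpep1* by 1.11 ± 0.23. *Cyp26b1* and *Dpep1* were not called without GC-treated tumors 2 and 4 (log2 fold change 1.67 and 0.84, edgeR adjusted p = 0.0718 and 0.274).

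GR KO tumors, in which host cells still carried the receptor, show which effects differed when the tumor cells lacked it. There, GC treatment raised 431 genes (2.71%) and lowered 591 (3.71%). Of the parental DEGs, 18 of 69 higher and 18 of 55 lower were called in the same direction in GR KO tumors, 4.18% and 3.05% of the GR KO lists. The sign was the same for 56 of the 69 and 44 of the 55, and 0 and 1 were called in the opposite direction. The share of all genes with the same sign is not given here. In these tumors, *Il1b*, *Tnf* and *Ccl22* stood at -2.29, -2.98 and -2.24 on the log2 scale, all called lower. *Tsc22d3*, *Per1* and *Chi3l3* stood at 1.77, 1.29 and 3.27, all called higher. *Fkbp5* and *Adamts1* had larger values there than in parental tumors, 2.03 and 1.70, both called higher, and their difference between genotypes was not called (edgeR adjusted p = 0.243 and 0.247). *Hif3a* had 0 counts in every GR KO control tumor and a mean of 0.584 CPM with GC, against 10.8 CPM in GC-treated parental tumors, so no fold is given for it. *Hif3a* was also called higher in GR KO tumors (edgeR adjusted p = 0.0147), and its difference between genotypes was not called (edgeR adjusted p = 0.410). The tumor cell receptor and other features of the edited line cannot be told apart here. The difference between the effects was called for 31 genes (0.195%), and 6 of the higher and 5 of the lower parental DEGs were among them. The number of genes with a called difference of the GC effect between genotypes was 144 with a replicate block and 784 with DESeq2, and a difference not called here does not show equal effects. For *Mt1*, the rise of 1.81 in parental tumors stood against a value of -0.10 without the tumor cell receptor (difference 1.90 ± 0.32, edgeR adjusted p = 0.0223). *Ccdc3* and, named after their values were seen, *Cyr61* (a matricellular protein), *M1ap*, *Ddah1* and *Gadd45g* also had larger values in parental tumors, by 2.57 ± 0.52, 2.45 ± 0.50, 1.58 ± 0.29, 1.59 ± 0.33 and 1.41 ± 0.28. *Cyr61* was at 15.4, 33.9, 24.8, 103 and 31.3 CPM in GC-treated parental tumors, and tumor 4 carried most of its rise (1.70 ± 0.36, 0.89 without GC-treated tumors 2 and 4). *Gadd45a*, a stress sensor, and *Hes1*, a Notch target, also named after their values were seen, had -1.88 and -1.90 in parental and 1.32 and 1.44 in GR KO tumors (differences -3.20 ± 0.52 and -3.34 ± 0.64, edgeR adjusted p = 0.0168 and 0.0330). *Col10a1*, *Klf10* and *Irs1* differed by -3.75 ± 0.72, -1.98 ± 0.38 and -1.51 ± 0.28. In parental tumors, *Cyr61*, *M1ap*, *Ddah1*, *Gadd45a* and *Hes1* were not called without GC-treated tumors 2 and 4 (log2 fold change 0.89, 0.74, 0.64, -1.82 and -1.46, edgeR adjusted p = 0.317, 0.292, 0.490, 0.128 and 0.419).

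Promoters of the DEGs were searched for the core of the GR binding palindrome, ACANNNTGT, which reads the same on both strands, in the 250 bases before each RefSeq transcription start (GRCm38.p6). Symbols of 53 higher and 37 lower DEGs matched the promoter table. The core stood before 5 of the matched higher DEGs and 0 of the lower. By window, where starts of the same gene can overlap, it stood in 7 of 71 windows of higher DEGs, in 0 of 40 windows of lower DEGs and in 5.84% of 32851 windows in all. With GN before and NC after it, a longer form that contains the core, it stood in 2 windows of higher DEGs and in 0.387% of all windows. These windows belong to *Mt1* (chr8:94178839-94179088, plus strand) and *Sgk1* (chr10:21993640-21993889, plus strand) and are shown as in the RefSeq assembly because both genes rose in tumors and in culture, with the core in capitals. A match is a description of letters and not a bound site.
Mt1: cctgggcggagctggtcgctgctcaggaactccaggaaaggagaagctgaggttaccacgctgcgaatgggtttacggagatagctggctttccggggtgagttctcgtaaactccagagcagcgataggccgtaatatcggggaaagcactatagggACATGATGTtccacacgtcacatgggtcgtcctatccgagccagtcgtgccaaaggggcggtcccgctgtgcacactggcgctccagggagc
Sgk1: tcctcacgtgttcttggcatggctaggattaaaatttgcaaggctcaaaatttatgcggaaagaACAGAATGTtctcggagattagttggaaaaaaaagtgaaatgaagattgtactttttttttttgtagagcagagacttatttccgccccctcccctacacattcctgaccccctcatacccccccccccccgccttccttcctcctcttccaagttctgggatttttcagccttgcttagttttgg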

How the data were processed

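RNA of whole tumors and cultured cells was sequenced from 3′ ends (QuantSeq). The authors trimmed reads with Trim Galore 0.6.5, aligned them to GRCm38 with STAR 2.6.1d, assigned them to genes of Ensembl release 75 with featureCounts, whose strand setting was not given in the sources used here, and deposited integer counts for 39179 genes, without normalization. The filter kept genes whose CPM reached 0.5 in 3 or more of the 20 tumors (or of the 11 cultures). TMM-scaled counts were fitted over 4 groups in edgeR 4.0.16 by quasi-likelihood (R 4.3.3, DESeq2 1.42.0 as an alternative), with Benjamini-Hochberg adjustment over all genes tested. The SE is the log2 fold change divided by the root of the F statistic. Single genes were compared by two-sided exact permutation of log2(CPM + 1). Libraries of a group differed by more than sampling noise (mean chi-square per gene at least 28.2). Whether libraries shared a tumor was not tested. The methods were tested on simulated data for 15519 genes, 200 of them changed by 2 on the log2 scale. There edgeR recovered 67.5% of the changed genes with 2 false calls, and DESeq2 72.5% with 25 false calls. Genes named were 7 set genes, 12 DEGs per direction by size with non-overlapping groups and at least 1 CPM, and called or abundant list members, not all of which are reported; members and lists were chosen with earlier results of these data known. Positions come from GENCODE M21, which holds 37693 of the identifiers. Alternatives were other tests, size factors, filters, fold thresholds, sample sets and a replicate block.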

Additional observations from a re-analysis of the deposited data

Results flagged for a closer look

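In 15 of 324 groups of 5 tumors examined (named genes, list sums and library properties), 1 tumor lay far from the other 4. Independent groups would give about 1 in 20 by chance. These groups share genes and libraries, so the count gives no verdict on chance. The flag was a gap to the nearest tumor above 0.71 of the group's range. On log2(CPM + 1) for genes and sums, this ratio was for *Ccl4* in GC-treated tumor 1 (highest) at 0.726, *Cd74* in control tumor 5 (lowest) at 0.833, *Dct* in control tumor 5 (lowest) at 0.752, *Ddit4* in GC-treated tumor 4 (lowest) at 0.752, *Mlana* in GC-treated tumor 3 (highest) at 0.788 and *Per1* in control tumor 1 (highest) at 0.917. It was for *Pmp22* in GC-treated tumor 4 (highest) at 0.806, *Sox10* in control tumor 5 (lowest) at 0.799, *Sparc* in GC-treated tumor 2 (highest) at 0.882, *Tmprss11g* in control tumor 5 (highest) at 0.712, the summed level of keratinocytes in control tumor 5 (highest) at 0.727 and the summed level of Schwann cells in GC-treated tumor 4 (highest) at 0.836. It was also for the summed level of glucocorticoid-responsive genes in control tumor 5 (highest) at 0.877, the summed level of hypoxia and glycolysis in control tumor 5 (highest) at 0.779 and the mitochondrial share in control tumor 2 (highest) at 0.827.

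The GC effect differed between parental and GR KO tumors by the test of the difference itself (parental minus GR KO, log2) for *Ccdc3* at 2.57, *Col10a1* at -3.75, *Cyr61* at 2.45, *Ddah1* at 1.59, *Gadd45a* at -3.20, *Gadd45g* at 1.41, *Hes1* at -3.34, *Irs1* at -1.51, *Klf10* at -1.98, *M1ap* at 1.58 and *Mt1* at 1.90.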

How the results depend on the processing

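Higher and lower DEG counts (69 and 55) were 181 and 195 with DESeq2, 206 and 329 with the number of genes detected as a covariate and 24 and 8 without GC-treated tumors 2 and 4, the last pair of settings chosen after the data were seen. They were 69 and 56 with DESeq2's size factors, 72 and 52 without the filter, 80 and 62 with 10 counts in every tumor, 79 and 43 with parental tumors alone, 69 and 55 without a minimum fold change and 59 and 46 at a minimum of 2. Leaving out 1 tumor in turn gave 36 to 95 higher and 24 to 83 lower DEGs, with higher and lower counts of 95 and 83 without control tumor 2, 36 and 24 without control 3, 40 and 36 without control 4, 37 and 25 without control 5, 40 and 33 without GC-treated tumor 2, 38 and 26 without GC-treated 4 and 46 and 33 without GC-treated 5; the cause was not tested. In all 10 such fits, 31 higher and 17 lower DEGs kept their call, and DESeq2 called 120 of the 124. Of the genes named in the text, 51 lost their call without GC-treated tumors 2 and 4 and 15 with parental tumors alone. With a replicate block the counts were 84 and 80, and genes with a called difference of the GC effect between genotypes went from 31 to 144 (784 with DESeq2); deviations of same-numbered tumors correlated at -0.32 to 0.29, over 0.1 in 3 of 5 pairs, so the numbers were not taken as pairs. With the replicate block, *S100a8*, *Ltb* and *Cdh6* lost their calls in parental tumors (edgeR adjusted p = 0.0624, 0.0516 and 0.0615). In culture, DESeq2 called 137 higher and 114 lower. With placement thresholds of 0.2 and 0.25, 41 higher and 32 lower DEGs were low in the line. At these thresholds, 24 higher and 21 lower DEGs were present in it, and 4 higher and 2 lower lay between. With the DMSO cultures alone, added after the data were seen, 14 higher and 15 lower DEGs were present in the line. The sign of a list median changed without GC-treated tumors 2 and 4 for keratinocytes (-0.16 to 0.0473) and circadian clock (-0.0404 to 0.24). The sign changed, for genes that were not called, with log2 fold changes of *Sox10* at 0.0440 without GC-treated tumor 3; *Fasn* at -0.0203 without GC-treated tumor 4; *Acta1* at 0.0177, *C1qa* at -0.0854, *Fasn* at -0.32, *Pmepa1* at -0.0676 and *S100b* at -0.0342 without GC-treated tumors 2 and 4; *Krt14* at 0.13 without control tumor 5; the cause was not tested. Over the leave-one-out fits, *Fasn* ranged from -0.0203 to 0.25, *Krt14* ranged from -0.65 to 0.13 and *Sox10* ranged from -0.47 to 0.0440. Levels near the floor of 3 counts carry large counting error.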
